A study of Arabidopsis thaliana with 4 samples.

Results

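The 60 genes described here encode proteins of the small (40S) subunit of the cytosolic ribosome of Arabidopsis thaliana, in 25 protein families from Sa to S24. They were chosen by locus from a list of cytosolic small-subunit loci, although earlier results of these data were known. A matched probe was found for 59 of the 60, among the 34252 genes on the arrays (transcripts without a matched locus counted as genes of their own). Of these 58 passed the signal filter, which asked for an intensity of 100 or more after background subtraction on both wild-type or both sahy9/apum23 arrays. AT2G32060, an S12 gene, had no matched probe. AT2G09990, an S16 gene, had 1 probe, which was at background on every array. The reference annotation names 14 of the 60 as ribosomal, and the family of each of the others follows the established Arabidopsis nomenclature.

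Labelled RNA of whole seedlings was hybridized to 4 one-colour Agilent arrays, 2 for each genotype, the wild type being Col-0 and the mutant sahy9/apum23 (labelled sahy9-1). All seedlings had grown for 10 days without added salt and then spent 1 day on medium with 150 mM NaCl, so the values give the genotype difference under salt only. The sahy9/apum23 line has a T-DNA insertion within an exon of APUM23, a nucleolar Pumilio-type RNA-binding protein with a part in processing the ribosomal RNA precursor. It is 1 line, and the 2 replicates of each genotype came from 2 independent experiments by the submitters' account. In whole seedlings a gene that is active in fewer cells and a gene with less RNA per cell cannot be told apart.

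The 40S subunit binds the messenger RNA and reads its codons, and it consists of 1 ribosomal RNA and one copy each of a fixed set of proteins. In Arabidopsis each of these proteins is encoded by several paralogous genes, most of them active in the same tissues and at high levels, and growing tissue needs their products in like amounts. The proteins of the body and those of the head of the subunit are described in turn, after the genes as a group.

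A total of 74.6 to 76.3% of the 43803 gene spots per array were well above background, 10 to 13 spots per array were outliers, and no spot was saturated. No member spot was an outlier, and all 58 tested members stood well above background on every array. The log2 level of APUM23 itself (each array relative to its 75th percentile) was -0.61 and -0.42 on the wild-type and -3.34 and -3.58 on the sahy9/apum23 arrays. It fell by 2.95 on the log2 scale (adjusted p = 0.00097, limma), which matches the labels, although where its probe lies relative to the insertion was not checked. The next genes in the order of the annotation fell as well, ALAAT2 (AT1G72330) at least 65.4-fold to a signal not well above background (a bound set by the lowest signal well above background on each array, adjusted p = 0.000678) and AT1G72340 by a log2 fold change of -1.82 (adjusted p = 0.000825). ERF73 (AT1G72360) had a log2 fold change of 0.12 (adjusted p = 0.386), and the 40S gene AT1G72370, described below, follows it.

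The 40S genes shifted upward together in sahy9/apum23. Of the 58 tested genes 55 (94.8%) were higher in sahy9/apum23 at an adjusted p of 0.05 or less (limma, adjusted by Benjamini-Hochberg over the 21729 genes tested), 0 were lower and 3 did not pass. Of all genes tested 25.4% were higher and 24% were lower. The median log2 fold change of the 58 genes was 0.54 (1.46-fold), with quartiles of 0.46 and 0.69, against -0.0041 for all genes tested. All 58 differences were positive, and in 57 genes both sahy9/apum23 arrays lay above both wild-type arrays, which held for 40% of all genes tested, while 40.3% had both below. The shift was small and even, since 46 of the 58 log2 fold changes lay between 0.3 and 0.8 and 42 lay within 0.2 of the median.

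On each array the median over the 58 genes, set against the wild-type mean, was -0.06 and 0.06 on the wild-type and 0.50 and 0.47 on the sahy9/apum23 arrays. The replicates of a gene differed by a median SD of 0.10 in the wild type and 0.04 in sahy9/apum23, so the shift exceeded the spread between replicates. With 2 arrays per genotype the count of calls rested on the spread estimated across genes. With 1 sahy9/apum23 array left out fewer genes passed, among the 58 as among all genes tested. The methods' t-test passed 0 of the 58 after Benjamini-Hochberg adjustment, where it called 91 of all 21729 genes tested. At an unadjusted p of 0.05 it passed 49 of the 58. The median log2 fold change stayed between 0.49 and 0.61 with any 1 array left out. AT5G02960 and AT1G72370, described below, lost the call when either sahy9/apum23 array was left out, and the 4 genes farthest above the median kept it with any 1 array left out.

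**Figure D1:**
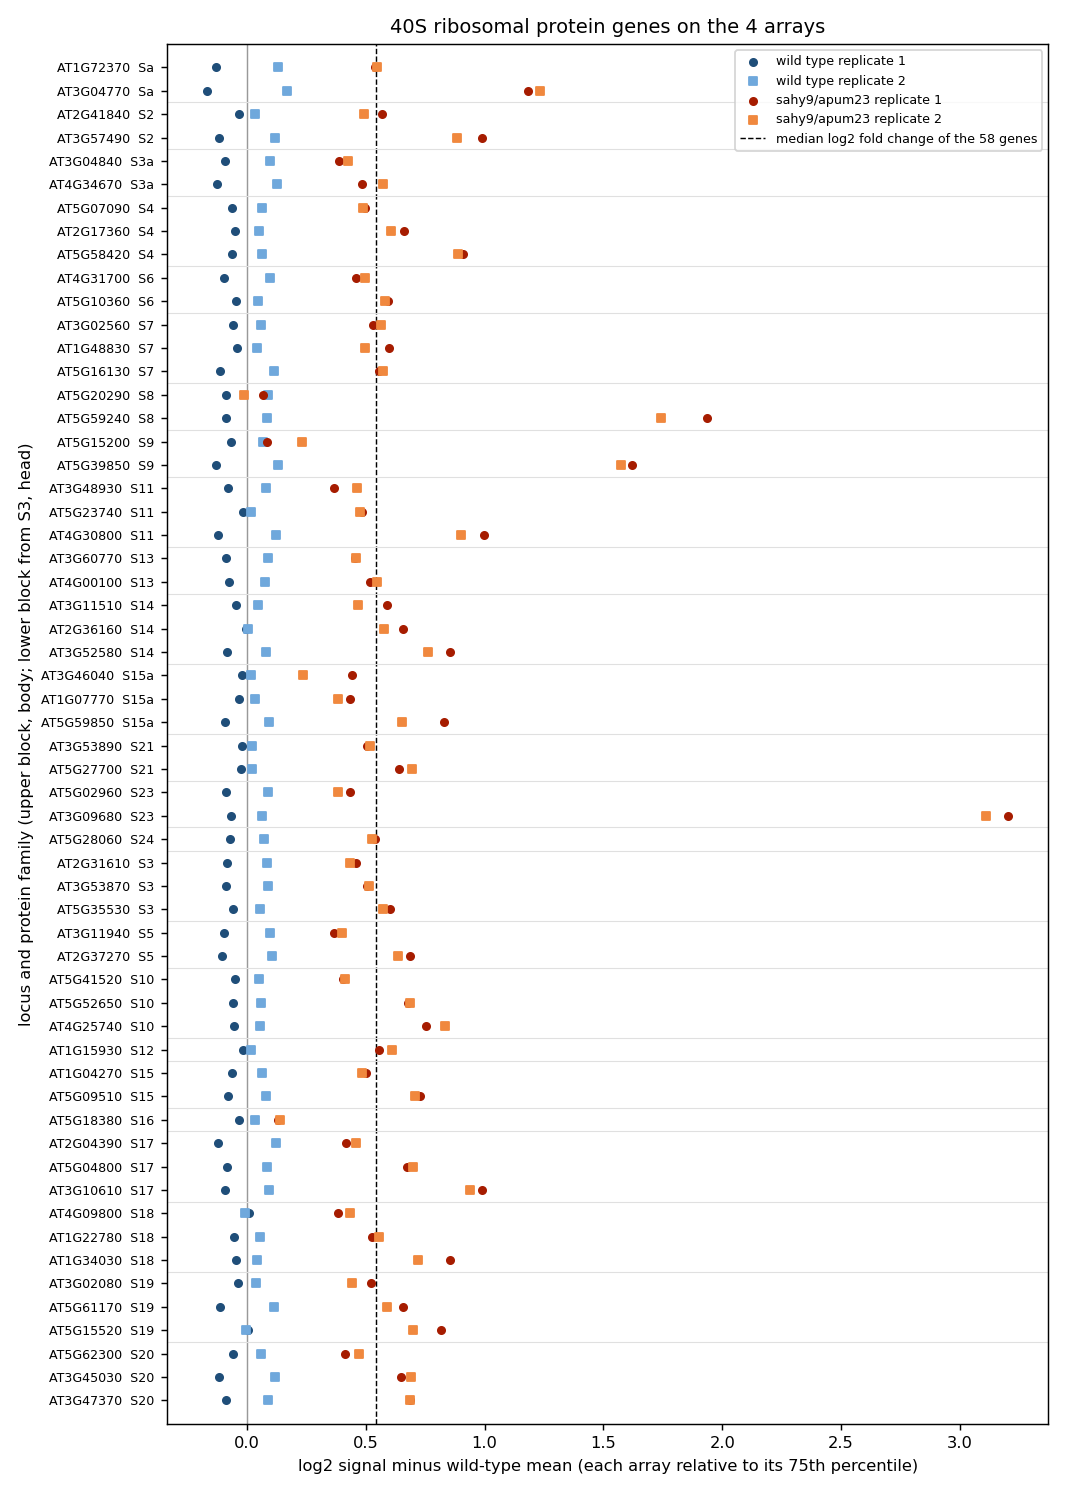
Log2 signal of each of the 58 tested 40S genes on the 4 arrays, minus the mean of the 2 wild-type arrays of that gene, with 1 row per gene grouped by protein family and the median log2 fold change as a dashed line. In 57 genes both sahy9/apum23 points lie to the right of both wild-type points, most of them close to the median of 0.54, and AT3G09680, AT5G59240, AT5G39850 and AT3G04770 lie farthest to the right.

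The 3 genes closest to the median serve as examples of the shared shift. AT3G02560, an S7 gene, read 3.64 and 3.76 on the wild-type and 4.23 and 4.26 on the sahy9/apum23 arrays (log2 relative to the 75th percentile), a log2 fold change of 0.55 (SE 0.07, adjusted p = 0.00633, limma). AT1G72370, a gene of the Sa protein (P40 in the annotation), read 3.88 and 4.14 on the wild-type and 4.55 and 4.56 on the sahy9/apum23 arrays, a log2 fold change of 0.54 (SE 0.11, adjusted p = 0.0156). AT1G48830, also an S7 gene, read 3.73 and 3.82 on the wild-type and 4.38 and 4.27 on the sahy9/apum23 arrays, a log2 fold change of 0.55 (SE 0.08, adjusted p = 0.0067). In all 3 genes the lower sahy9/apum23 array stood above the higher wild-type array.

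Other cytosolic ribosomal protein genes had the same direction. Of 39 further 40S loci, which belong to other families or are further paralogs in S2, S15, S15a, S16, S17 and S24, 33 were tested and 33 were higher, with a median log2 fold change of 0.51 and a range of 0.28 to 1.1. Of 127 loci of the large (60S) subunit 120 were tested, 101 (84.2%) were higher, 1 was lower and 18 did not pass, with a median of 0.52. The lower one was AT3G16780, an L19 gene. Among the tested loci of this list, the 3 that rose past 3-fold were AT2G40010, AT3G28500 and AT5G40040, all genes of stalk proteins of the 60S subunit. The paper also names AT1G02830, a gene of another ribosomal protein family, as up-regulated. AT1G02830 is not among the genes given here, so strong rises were not shown to be confined to stalk proteins. The values of these lists were known when they were named, and no test set them against the 58 genes.

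**Figure D2:**
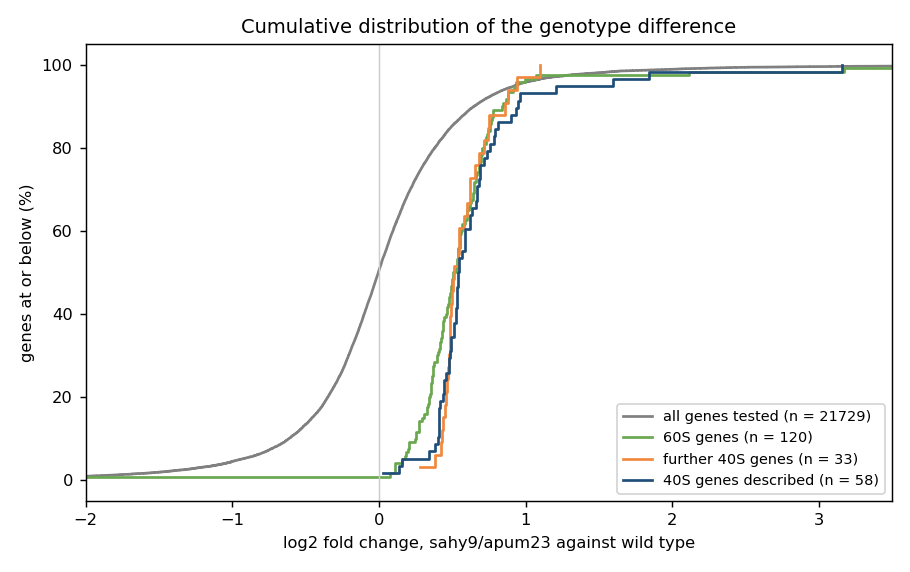
Cumulative percentage of genes at or below each log2 fold change (sahy9/apum23 against wild type) for the 58 tested 40S genes, 33 further 40S genes, 120 genes of the 60S subunit and all 21729 genes tested. The 3 ribosomal curves rise steeply near 0.5 and the curve of all genes rises near 0, and values beyond the limits of the axis are counted but not drawn.

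Markers of the organs of the seedling were compared in the same libraries. All 6 shoot markers were well above background, and their summed level, as a multiple of the 75th percentile, was 452 and 471 on the wild-type and 391 and 411 on the sahy9/apum23 arrays, with 3 of the 6 lower by the test. The 6 root markers summed to 9.36 and 8.41 on the wild-type and 15.4 and 13.1 on the sahy9/apum23 arrays, with 2 higher, the transporter genes PHT1;1 and NRT2:1, and 1 lower, the aquaporin gene TIP2;3. Their median log2 fold change was -0.10, opposite in sign to the change of their sum, to which PHT1;1 contributed most. The 9 markers of dividing cells summed to 5.92 and 5.92 on the wild-type and 6.80 and 6.46 on the sahy9/apum23 arrays, with a median log2 fold change of 0.11, and 1 of them was higher, the mitotic cyclin gene CYCB1;1 at 1.62. Of 6 seed markers 1 passed the filter and 2 were at background on every array. Their part in the shift of the 40S genes was not tested.

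Within the subunit, 34 genes of the body were tested, of which 32 were higher, with a median log2 fold change of 0.54 and a range of 0.03 to 3.16. The 24 tested genes of the head had a median of 0.59 and a range of 0.13 to 0.96, and 23 of them were higher. All 3 members that rose at least 3-fold, AT3G09680, AT5G59240 and AT5G39850, encode proteins of the body, and 1.66% of all genes tested rose that much.

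To ask which genes departed from the shared shift, each array was set relative to the median of the 58 genes and the fit was repeated over all genes tested. Distances from the shared shift are given from this reference. It stood at 0.50 and 0.47 on the sahy9/apum23 arrays against the wild-type mean, below the median log2 fold change of 0.54. AT3G02560, the gene closest to that median, lay 0.06 above the reference. In this fit 13 members lay above the shared shift and 3 below it, where 7.23% and 69.1% of all genes tested did. Most of these departures were small, and how many passed varied with the processing, from 4 to 19 above and from 0 to 6 below. A total of 4 members lay at least 1.5-fold above the median and passed (3.56% of all genes tested), AT3G09680, AT5G59240, AT5G39850 and AT3G04770. That count was 3 or 4 under every alternative that was run. The other 9 above the shared shift were AT3G57490 (S2), AT5G58420 (S4), AT4G30800 (S11) and AT3G52580 (S14) of the body and AT4G25740 (S10), AT5G09510 (S15), AT3G10610 (S17), AT1G34030 (S18) and AT5G15520 (S19) of the head, by 0.23 to 0.48 on the log2 scale (adjusted p from 0.00409 to 0.0476, limma).

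AT3G09680 encodes S23, a protein at the decoding centre between head and body. Its log2 level was -3.74 and -3.61 on the wild-type and -0.47 and -0.57 on the sahy9/apum23 arrays. The fitted log2 fold change of the gene was 3.16 (8.92-fold, SE 0.08, adjusted p = 0.000432, limma), and relative to the shared shift it was 2.67 (adjusted p = 9.22e-05). Its paralog AT5G02960 read 4.97 and 5.15 on the wild-type and 5.50 and 5.44 on the sahy9/apum23 arrays, a log2 fold change of 0.41 (SE 0.09, adjusted p = 0.0186), and its distance from the shared shift, -0.08, did not pass (adjusted p = 0.446). The difference between the paralogs, set to 0 on average in the wild type, was 0.02 and -0.02 on the wild-type arrays and 2.77 and 2.73 on the sahy9/apum23 arrays, a 6.72-fold gap. With normexp background correction, which shrinks changes of dim probes, the log2 fold change of AT3G09680 was 2.23 (adjusted p = 0.0547). It remained above the shared shift in that setting. The gap between the S23 paralogs was 1.73 on the log2 scale with normexp and 2.87 with the mean of all probes.

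AT5G59240 encodes S8, a protein of the body. It read -2.77 and -2.60 on the wild-type and -0.75 and -0.94 on the sahy9/apum23 arrays, a log2 fold change of 1.84 (3.58-fold, SE 0.10, adjusted p = 0.00166, limma). Its distance from the shared shift was 1.35 (adjusted p = 0.000507). The other S8 gene, AT5G20290, read 4.70 and 4.88 on the wild-type and 4.85 and 4.77 on the sahy9/apum23 arrays, a log2 fold change of 0.03 (SE 0.09, adjusted p = 0.824). It was the only member whose genotypes overlapped, and in the fit against the shared shift it was lower by its brightest probe (-0.46, adjusted p = 0.00482). The 2 dimmer probes of AT5G20290 gave log2 fold changes of 0.46 and 0.37, both with the genotypes apart, and the distance from the shared shift was -0.27 with the mean of all probes (adjusted p = 0.0533) and -0.09 with the dimmest (0.408). By the brightest probe the distance was -0.49 to -0.43 with any 1 array left out. Only its size is given there, since 1 array of a genotype then remained. On the sahy9/apum23 arrays the S8 paralogs differed by 1.87 and 1.76, a 3.51-fold gap by the brightest probes. On the log2 scale this gap was 1.55 with the mean of all probes, 1.47 with the dimmest and 1.35 with normexp correction. With normexp correction AT5G59240 had a log2 fold change of 1.46 (adjusted p = 0.0501), and its distance from the shared shift, 0.86, missed the threshold (adjusted p = 0.0561).

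AT5G39850 encodes S9, a protein near the channel by which the messenger RNA enters. It read -0.93 and -0.67 on the wild-type and 0.82 and 0.78 on the sahy9/apum23 arrays, a log2 fold change of 1.60 (3.03-fold, SE 0.11, adjusted p = 0.00216, limma) and 1.11 relative to the shared shift (adjusted p = 0.000689). Its paralog AT5G15200 read 5.19 and 5.33 on the wild-type and 5.35 and 5.49 on the sahy9/apum23 arrays. The arrays of the genotypes were just apart, and the log2 fold change of 0.16 (SE 0.09, adjusted p = 0.205) did not pass. By this probe AT5G15200 lay below the shared shift (-0.33, adjusted p = 0.0265), while with the mean of its probes the distance was 0.04 (adjusted p = 0.756). By the same probe the distance did not pass with normexp correction (adjusted p = 0.0771), without a signal filter (0.118) or with the methods' t-test (0.101). It was -0.42 to -0.24 with any 1 array left out. These fits left 1 array of a genotype, so only the size of the distance is given. The probe used for AT5G15200 was the brightest one, and a much dimmer probe, designed to another transcript of the locus, gave 1.03. On the sahy9/apum23 arrays the S9 paralogs differed by 1.54 and 1.34, a 2.71-fold gap, which was 1.00 on the log2 scale with the mean of all probes and 0.57 with the dimmest.

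AT3G04770 (RPSAb) is the other gene of the Sa protein, which sits on the back of the body where messenger RNA leaves. It read 0.43 and 0.77 on the wild-type and 1.79 and 1.84 on the sahy9/apum23 arrays, a log2 fold change of 1.21 (2.31-fold, SE 0.13, adjusted p = 0.00428, limma) and 0.72 relative to the shared shift (adjusted p = 0.00235). A dimmer probe of the gene gave a log2 fold change of 1.16. Its paralog AT1G72370, given above as an example of the shared shift, rose by 0.54, and the Sa paralogs differed by 0.65 and 0.69 on the sahy9/apum23 arrays, a 1.59-fold gap.

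**Figure D3:**
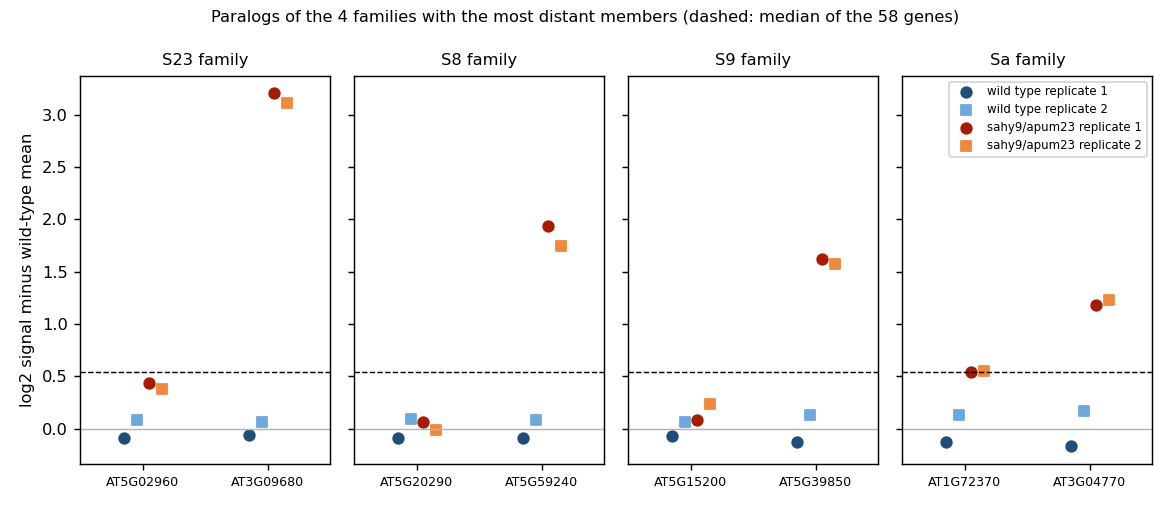
Log2 signal minus the wild-type mean on the 4 arrays for both paralogs of the S23, S8, S9 and Sa families, with the median of the 58 genes as a dashed line. The right-hand genes have log2 fold changes of 3.16, 1.84, 1.60 and 1.21, and the left-hand genes of 0.41, 0.03, 0.16 and 0.54.

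Among the other families of the body, the 3 S7 genes had the narrowest range of any family, from 0.55 to 0.57. S6, which is phosphorylated downstream of the TOR kinase, has a pair of genes, RPS6 and EMB3010 in the annotation, and they rose by 0.48 and 0.59. The S13 genes rose by 0.46 and by 0.53 (RPS13A), the S3a genes by 0.40 and 0.53, the S21 genes by 0.51 and 0.67, and the single S24 gene listed, AT5G28060, by 0.53. Wider ranges were found in S11, whose gene AT4G30800 rose by 0.95 against 0.41 and 0.48 for its paralogs, in S2, whose gene AT3G57490 rose by 0.94 against 0.53, and in S4, whose gene AT5G58420 rose by 0.90 against 0.49 and 0.63. In S14 the genes rose by 0.53 to 0.81 and in S15a by 0.34 to 0.74, with AT3G46040 (RPS15AD) at 0.34 the lowest of the genes that passed the test.

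Among the families of the head, S3, which lines the entry of the messenger RNA, had 3 genes that rose by 0.45, 0.51 and 0.59. The S5 genes RPS5A, known for its activity in dividing cells, and RPS5B rose by 0.38 and 0.66. The widest range in the head was in S17, where AT3G10610 rose by 0.96 and its paralogs by 0.44 and 0.69. The S10 genes rose by 0.41 (RPS10B), 0.68 and 0.79, the S18 genes by 0.41 (RPS18C), 0.54 (PFL, known from the pointed first leaves of its mutant) and 0.79, and the S15 genes by 0.49 and 0.72. The ranges were 0.48 to 0.76 in S19 and 0.44 to 0.69 in S20, and the single S12 gene measured, AT1G15930, rose by 0.58.

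AT5G18380 encodes S16, whose tail reaches the transfer RNA in the peptidyl site. It read 4.97 and 5.03 on the wild-type and 5.13 and 5.14 on the sahy9/apum23 arrays, and although the genotypes were apart the log2 fold change of 0.13 (SE 0.06) did not pass (adjusted p = 0.151, limma). It lay below the shared shift by 0.35 (adjusted p = 0.0119). AT5G18380 has 1 probe, and with AT2G09990 at background it had no tested S16 paralog among the 60. That distance missed the threshold without a signal filter (adjusted p = 0.0628) and with normexp correction (0.0551). It was -0.33 without sahy9/apum23 replicate 1 and -0.37 without replicate 2. In each of those 2 fits all genes given with full departure values had the same SE, so they cannot judge the spread of 1 gene.

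Of the 22 families with more than 1 tested gene, 11 had a range of log2 fold changes under 0.3, and the median range was 0.33. In 20 of the 22, and in 10 of the 11 families with exactly 2 tested genes, the paralog with the dimmest probe had the highest log2 fold change. Across the 58 genes the log2 fold change fell with probe intensity (Spearman's rho -0.785, a description across genes that share the same 4 arrays). The same rho was -0.613 across the 120 genes of the 60S subunit and -0.0199 across all 21729 genes tested. The probes of 44 members lay above the 90th percentile of all genes tested in mean intensity. The 4 most distant members had mean intensities of 1205 (AT3G09680), 1094 (AT5G59240), 3536 (AT5G39850) and 7624 (AT3G04770), whereas the 3 members that did not pass read 82680 (AT5G20290), 99500 (AT5G18380) and 120400 (AT5G15200). The dimmest member probe, that of AT3G52580 in the S14 family at 427, had a log2 fold change of 0.81 and lay above the shared shift by 0.32 (adjusted p = 0.0169, limma). The part of probe intensity in the departures was not tested, and levels of different probes say nothing of which paralog had more transcript.

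A further 39 probes measured 29 of the members, all dimmer than the probe used and each well above background on the 4 arrays. All 39 gave a positive log2 fold change, with a median of 0.59 and a range of 0.04 to 1.16, and in 38 both sahy9/apum23 arrays lay above both wild-type arrays. They differed from the probe used by a median of 0.10, with 31 of the 39 larger and 31 within 0.2. The probes of 1 gene could disagree. The S23 gene AT5G02960 gave 0.41, 0.40 and 0.04 by its 3 probes, and RPS5A (AT3G11940) gave 0.38, 0.61 and 0.08. AT3G09680, AT5G59240 and AT5G39850 were each measured by 1 probe, so their distances from the shared shift had no further probe beside them. Whether a probe also took up signal from a paralog of its gene was not tested.

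**Figure D4:**
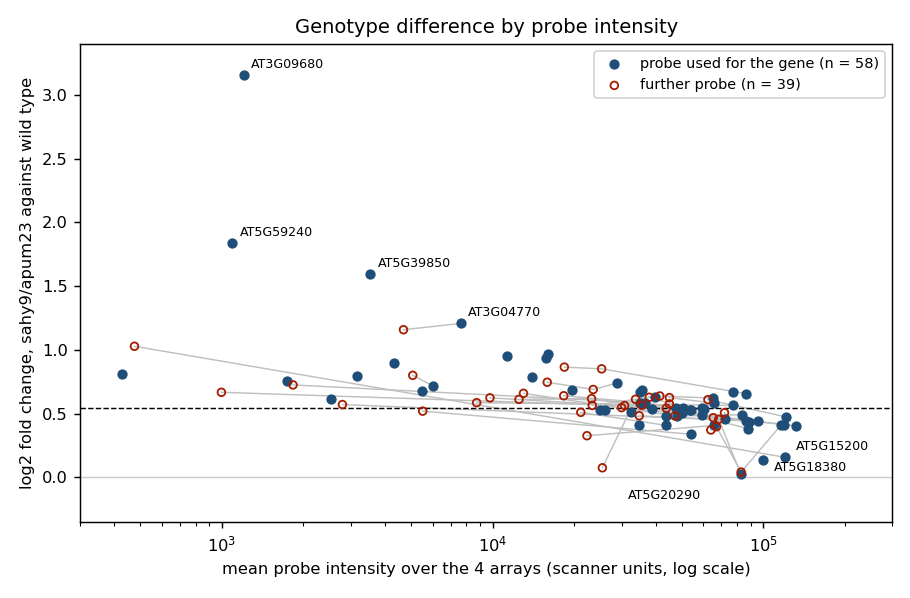
Log2 fold change (sahy9/apum23 against wild type) of each probe of the 58 tested 40S genes against its mean intensity over the 4 arrays on a log axis, with filled points for the probe used, open points for the 39 further probes and a line joining probes of 1 gene. The highest points, up to 3.16, belong to dim probes, and the lowest, from 0.03, to bright ones.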

How the data were processed

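Per the submitters' processing notes, the authors obtained the intensities of the spots with Agilent Feature Extraction 10.7.1.1, and the deposited values have the local background taken off. The deposited table with log2 values was scaled by the authors to each array's 75th percentile and centred on the wild-type mean, whereas the methods name MAS 5.0. It was used as an alternative, and the medians of its columns were 0.02 and -0.02 for the wild-type and -0.10 and -0.08 for the sahy9/apum23 arrays.

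Intensities were taken as log2 minus the array's 75th percentile. Control and outlier spots were left out, spots of a probe were averaged, and each gene was represented by its brightest probe on average. Transcript accessions were matched to loci through the TAIR10.1 annotation (26309 of 35137), and the unmatched ones kept their accession as name. The genotypes were compared as unpaired groups with limma 3.58.1 in R 4.3.3 (with jsonlite 2.0.0 and version 1.17.8 of data.table), over all 21729 genes tested. Departures were tested in a second fit with each array relative to the median of the 58 members. The 4 arrays were on 1 slide, and their number limits the precision. The scripts were tested on simulated data with known changes. Figures were drawn with matplotlib 3.10.9.

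Members at least 1.5-fold from the median and past an adjusted p of 0.05, their paralogs, members changed 3-fold or not above background, and the 3 closest to the median are given with full values. Ranges and further genes were added to account for all 60. The members and lists were chosen with earlier results of these data known. List entries that the annotation did not name as ribosomal were to be dropped, but it names few, and 1 locus of the 60S list that it names otherwise was left out. The alternatives covered background correction, scaling, signal filter, outlier spots, probes per gene, variance model, test, replicate block, single arrays, source of values and the reference for the shared shift, and the dimmest probe was added after seeing the data. Normexp used median signals. No coordinates or probe sequences were used here.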

Additional observations from a re-analysis of the deposited data

How the results depend on the processing

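No alternative that was run called any of the 58 genes lower. The count of 55 higher moved by over 1.5 times with the methods' t-test (0) and with single arrays left out (29 to 54), and was 49 with normexp correction and 43 without a signal filter. Among all genes tested the number higher fell too, from 5517 of 21729 to 1324 of 21729 with normexp. Without a signal filter it was 3521 of 34252, and 59 members were tested there. The members' median log2 fold change of 0.54 was 0.61 with normexp, which also moved the median of all genes to -0.10. The members' median was 0.62 with the dimmest probe of each gene, and 0.49 to 0.61 with single arrays left out. The distance of AT5G15200 from the shared shift turned from -0.33 to 0.0396 (adjusted p = 0.756) with the mean of all probes and to 0.57 (adjusted p = 0.00294) with the dimmest probe. Genes past the threshold above the shared shift, 13, numbered 4 with normexp, 8 with the mean of all probes, with the deposited table and with the further 40S loci in the reference, and 7 with the mean of the members as the reference. Those below it, 3, numbered 1 with normexp, without a filter and with the mean of all probes, and 6 with the mean of the members as the reference. Both counts fell with 1 sahy9/apum23 array left out. In the deposited table the values are centred on the wild-type mean before the reference median is taken. There the log2 fold change of AT3G09680 stayed at 3.16, and its distance from the reference was 2.60 against 2.67. The causes of the other changes were not tested. The labels share replicate numbers, but nothing states that a number marks a shared experiment. Replicate differences correlated between genotypes at 0.44 over all genes and 0.13 over the members. With the replicate block the count stayed at 55, with 11 above and 3 below the shared shift. In the departure fit with that block, all genes given with full departure values had the same SE. The 11 and 3 therefore cannot judge the spread of 1 gene. Scaling to the 50th percentile, quantile normalization, the raw-signal filter, keeping outlier spots and an intensity trend in the variance changed no count of higher or departing genes by 1.5 times.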
